A study of Mus musculus with 9 samples.

Results

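Livers of mice that ate a diet without methionine and choline (MCD diet) and received Gynostemma pentaphyllum polysaccharides at 300 mg/kg (the HGPP group) were compared with livers of mice on the sufficient diet (MCS) that received the vehicle. The comparison was taken by group label and used 6 of the 9 libraries of the series, 3 per group. All mice were male wild-type C57BL/6, bought at 9 weeks of age and fed their diet for 4 weeks after an adaptation week, and RNA came from the right lobe. The vehicle was 0.5% sodium carboxymethylcellulose (CMC-Na), in which the polysaccharides were also dissolved, so that both groups received it. Diet and HGPP differ together between these groups and their effects cannot be told apart here. The other 3 libraries, MCD diet with vehicle, give the level on the same diet without HGPP and are shown beside the results where a gene's position between the groups matters. The libraries are labelled as separate samples of each group, livers of 3 mice per group by the methods, and p-values measure the spread between them.

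The liver needs choline and methionine to make phosphatidylcholine, which it packs around triglyceride in very low density lipoprotein, and a diet without both nutrients is used to produce fatty liver with inflammation in mice. Methionine is also a precursor of cysteine and glutathione, and a shortage of amino acids is sensed by the kinase GCN2, which raises translation of the transcription factor ATF4. In male mice the pulsatile release of growth hormone maintains a program of liver genes that includes the major urinary proteins. Kupffer cells are the resident macrophages of the liver, and in fatty liver disease lipid-associated macrophages that derive from monocytes join them.

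The deposited values were FPKM (fragments per kilobase of gene, relative to library depth), for 21936 genes. The fragments behind them came to between 14964995 and 18902857 per library in MCS and between 13355288 and 15691036 in HGPP. With these depths an FPKM of 0.1 stands for 1.34 to 1.89 reads per kilobase, so that levels near it rest on single reads. Tests were run on the 13817 genes with at least 0.1 FPKM in 3 of the 9 libraries. The root mean square difference in log2(FPKM + 0.1) between an HGPP and an MCS liver was 0.75 to 1.00, against 0.47 to 0.61 between MCS livers and 0.51 to 0.61 between HGPP livers. All livers carried the hepatocyte markers at high level, such as albumin (Alb, 57774, 44570.0 and 46250.0 FPKM in MCS and 35980.0, 29927 and 40115 in HGPP). The muscle creatine kinase Ckm, the adipocyte hormone Lep and the pancreatic lipase Pnlip were listed at 0 in all 6 libraries. Other markers of these tissues were not all at 0. The summed level of 7 pancreas genes was 4.19, 8.25 and 6.23 FPKM in MCS and 4.36, 5.89 and 4.90 in HGPP. That of 7 skeletal muscle genes was at most 1.07 FPKM in MCS and 1.22 in HGPP. The labels name no batch, and MCS replicate 1 and HGPP replicate 2 were often the highest of their group for leukocyte genes.

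HGPP livers differed from MCS livers in 2602 genes at an adjusted p under 0.05 (limma with Benjamini-Hochberg adjustment over all tested genes), which is 18.8% of those tested. Of these 2260 were higher in HGPP (16.4%) and 342 lower (2.48%). The HGPP values of all tested genes lay above the MCS values by a median of 0.33 on the log2 scale, and the 10 most abundant genes held 31.8% to 34.5% of the FPKM in MCS and 29.0% to 29.7% in HGPP. With the median of all genes set equal by median-of-ratios scaling (median 0.02) 1376 genes passed (9.96%), 705 of them higher (5.10%) and 671 lower (4.86%). The 705 were also called as deposited, together with 336 of the 671 (2.43%), and no gene turned from higher to lower. Quantile normalization called 661 higher and 546 lower. Below, a gene is said to have risen or fallen only if limma's adjusted p was under 0.05 in the same direction both as deposited and after this scaling. Fold changes are log2 differences of FPKM + 0.1 with their standard error, as deposited, and understate the change of low genes. By the thresholds of the study (more than 1 log2 unit of change and an unadjusted p below 0.05), applied here to the limma fit, 1713 genes passed (12.4%), 1509 higher and 204 lower. These became 797 higher and 452 lower after median-of-ratios scaling, 583 and 458 after quantile normalization, and 578 in all with a pseudocount of 1. The study applied the thresholds with DESeq to read counts, so these numbers are not its own count. The count of 2602 fell to 1133 without MCS replicate 2, 1387 without MCS replicate 3, 1025 without HGPP replicate 2 and 1455 without HGPP replicate 3. The 3 HGPP values lay above all 3 MCS values in 5064 genes (36.7% of those tested) and below them in 673 (4.87%).

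**Figure D1:**
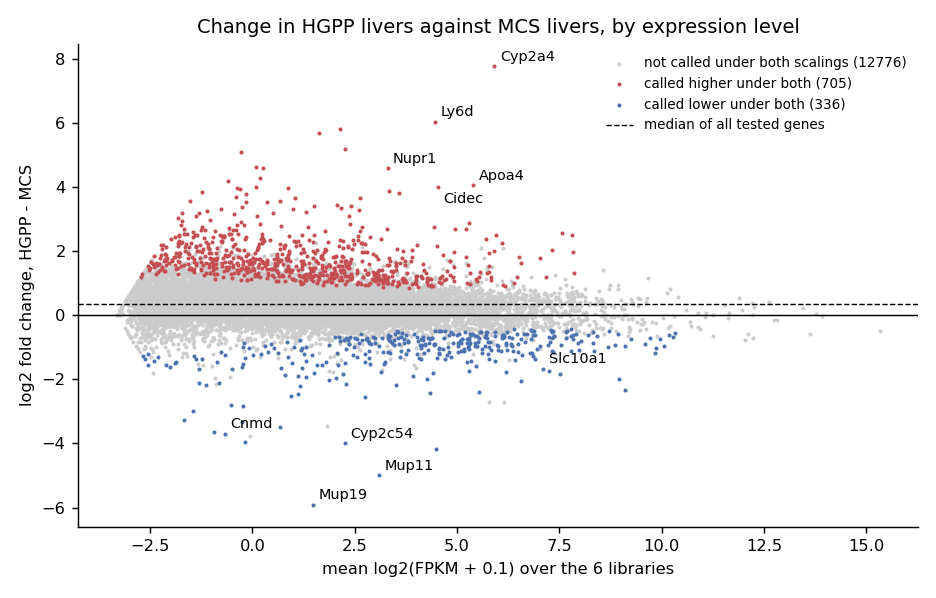
Log2 fold change of HGPP against MCS for 13817 genes (vertical axis) by their mean log2(FPKM + 0.1) over the 6 libraries (horizontal axis). Red points are the 705 genes that rose and blue points the 336 that fell under both scalings, and the dashed line marks the median of all genes, 0.33.

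The largest rises were those of a steroid-hydroxylating cytochrome P450 and of several genes that livers of MCS mice hardly expressed. Cyp2a4 (chr7:26307169-26315088), more abundant in female than in male mouse liver, stood at 4.84, 2.03 and 6.38 FPKM in MCS and 522, 1009.9 and 1339 in HGPP. Every HGPP liver lay far above every MCS liver, and the log2 difference was 7.77 ± 0.43 (limma, adjusted p = 0.00013). Ly6d (chr15:74762056-74763620), a membrane-anchored surface protein best known from B cell precursors, stood at 2.42, 1.98 and 3.77 FPKM in MCS and 98.1, 295 and 193 in HGPP, again without overlap (6.03 ± 0.37, limma adjusted p = 0.00014). Cyp3a44, a female-biased cytochrome, was at 0.27, 0.685 and 0.613 FPKM in MCS and 16.1, 18.6 and 115 in HGPP. HGPP replicate 3 was the highest there, and the rise was 5.79 ± 0.66 (limma, adjusted p = 0.0015). Sprr1a, a cross-linked protein of stressed epithelia, stood at 0.263, 0.238 and 0.58 FPKM in MCS and 8.83, 42.1 and 28.8 in HGPP (5.66 ± 0.52, limma adjusted p = 0.00055). The others of the 10 largest rises were Cib3, Gsta1, Mmp12, Gpnmb, Nupr1 and Vmn2r3, with log2 fold changes from 4.28 for Vmn2r3 to 5.17 for Gsta1. Cyp2a4, Cyp3a44 and Gsta1 have close paralogs, so the division of reads between copies is uncertain.

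The largest falls were those of major urinary proteins, pheromone carriers that male liver secretes, and of cytochromes of the Cyp2c family. Mup19 (chr4:61778324-61782269) stood at 17.5, 58.9 and 9.67 FPKM in MCS and 0.281, 0.257 and 0.24 in HGPP. The MCS livers differed 6.09-fold among themselves, and all 3 lay far above HGPP, at a log2 difference of -5.91 ± 0.54 (limma, adjusted p = 0.00052). Mup11 fell from 69.5, 76.6 and 21.3 FPKM in MCS to 1.24, 0.65 and 3.44 in HGPP (limma, adjusted p = 0.0017) and Mup7 by 4.16 log2 units (limma, adjusted p = 0.0078). Cyp2c54 (chr19:40037940-40073827), a fatty acid epoxygenase, was at 21, 29 and 11 FPKM in MCS and 1.05, 1.3 and 0.963 in HGPP. Its HGPP values were nearly equal and lay under all MCS values (-3.98 ± 0.32, limma adjusted p = 0.00039). Cnmd (chr14:79637690-79662170), which encodes the cartilage glycoprotein chondromodulin, stood at 2.44, 2.12 and 1.99 FPKM in MCS and 0.0813, 0.0741 and 0.0692 in HGPP (-3.70 ± 0.25, limma adjusted p = 0.00018), so that its HGPP values rest on single reads. Clec2h, a C-type lectin, was near 0 in HGPP as well (1.58, 1.63 and 2.02 FPKM in MCS and 0.0829, 0 and 0.0706 in HGPP), and Hsd3b5, a male-specific steroid reductase of the 3-beta-hydroxysteroid dehydrogenase family, fell by 3.50 log2 units (limma, adjusted p = 0.0039). Gm37419 was listed at 0 in the 3 HGPP livers and at 0.464, 2.25 and 0.586 FPKM in MCS, and lost the call with limma-voom on the recovered reads (adjusted p = 0.2). The remaining members of the 10, Gm11084 and Cyp2c69, depended on single livers. Gm11084 lost the call without MCS replicate 3 or HGPP replicate 3 (adjusted p up to 0.057), and Cyp2c69, another Cyp2c cytochrome, without MCS replicate 2, MCS replicate 3, HGPP replicate 1, HGPP replicate 2 or HGPP replicate 3 (adjusted p up to 0.12). Mup and Cyp2c genes lie in clusters of near-identical copies, and single members are uncertain for that reason.

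**Figure D2:**
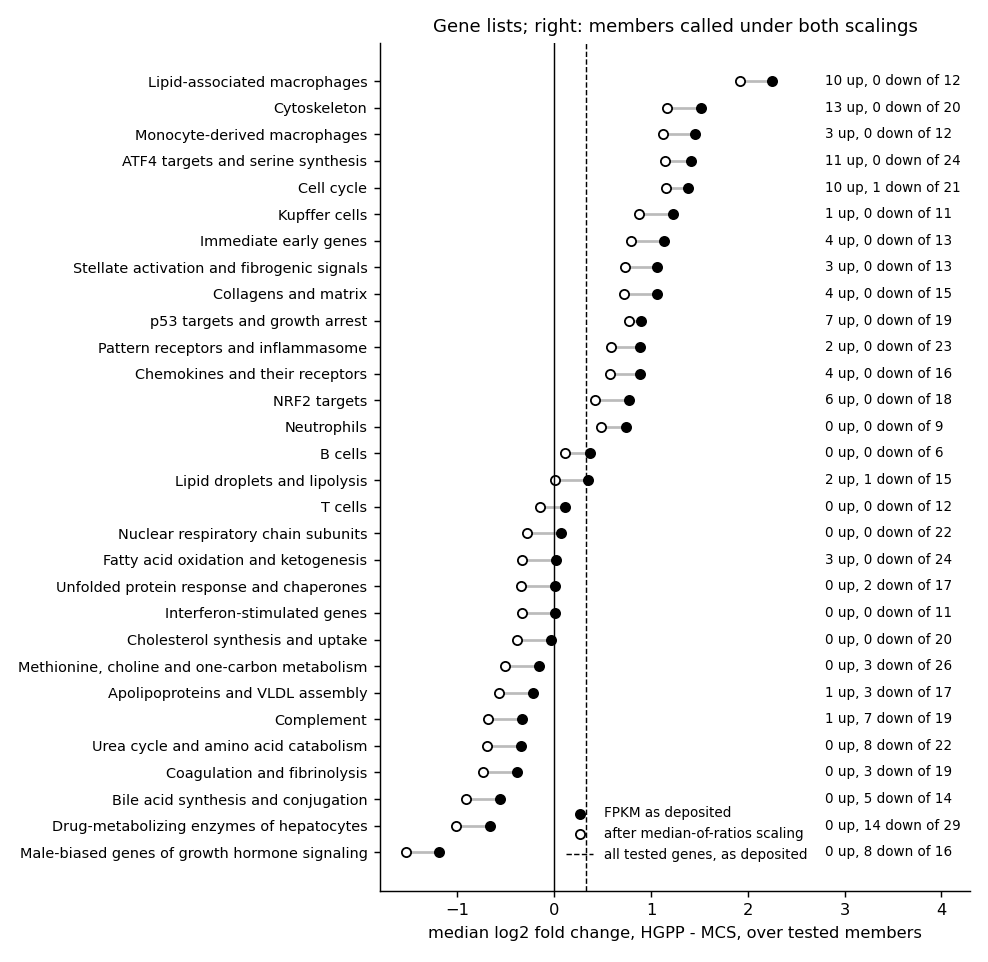
Median log2 fold change of HGPP against MCS over the tested members of 30 gene lists (horizontal axis), as deposited (black) and after median-of-ratios scaling (white), with the number of members that rose (up) and fell (down) under both. The lipid-associated macrophage list lies farthest right, with 10 of 12 members that rose, followed by cytoskeleton with 13 of 20, and the male-biased list lies farthest left, with 8 of 16 that fell.

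Many targets of ATF4, the transcription factor of the amino acid response, rose in HGPP livers. Of 24 members tested 16 were called higher as deposited and 11 under both scalings (against 16.4% and 5.10% of all genes). None was lower, and the median log2 fold change was 1.41 (1.15 after scaling, against 0.33 and 0.02 over all genes). Asns (chr6:7675169-7693254), asparagine synthetase, stood at 2.22, 1.71 and 1.17 FPKM in MCS and 13.1, 14.7 and 16.6 in HGPP. The HGPP livers lay within a narrow range, at least 5.90-fold above the highest MCS liver (3.09 ± 0.23, limma adjusted p = 0.00029). Psat1, an enzyme of serine synthesis, was at 0.783, 0.301 and 0.44 FPKM in MCS and 5.26, 8.76 and 8.03 in HGPP (3.66 ± 0.32, limma adjusted p = 0.00052). Atf3, a stress-induced transcription factor, stood at 1.2, 1.52 and 3.41 FPKM in MCS and 12.3, 34.4 and 16.1 in HGPP. HGPP replicate 2 was the highest, and all 3 lay above MCS (3.29 ± 0.44, limma adjusted p = 0.0025). Nupr1, a small chromatin protein of the stress response, was at 1.54, 2.62 and 1.75 FPKM in MCS and 19.3, 134 and 42.5 in HGPP and varied 6.94-fold within HGPP (4.57 ± 0.57, limma adjusted p = 0.002). Fgf21, a hepatokine that is also a target of PPAR-alpha, stood at 17.1, 21.3 and 21.4 FPKM in MCS and 95.3, 64 and 55.9 in HGPP (1.81 ± 0.21, limma adjusted p = 0.0015). The mRNA of Atf4 itself, which is controlled mainly in translation, was at 34, 43 and 41.4 FPKM in MCS and 51, 73 and 46.2 in HGPP and was not called (limma, adjusted p = 0.095). Without 1 library in turn, 11 to 14 members were called higher.

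RefSeq promoters (250 bases before to 50 after the start, GRCm38.p6) were available for 21 of the 24 members. They were searched on both strands for TGATGNAA, the composite element to which ATF4 binds with a C/EBP partner. The motif was present for 8 of the 21, and for 6 of the 10 members with a promoter that rose (Asns, Trib3, Atf3, Slc7a11, Fgf21 and Nupr1). It was present for 4.51% of the 27025 mouse genes with a promoter in the RefSeq table, which includes genes not tested here. A match describes these letters and does not show that a factor binds there. Because the list was drawn up as targets of ATF4, its motif counts beside that share are a description and no test. The 6 promoters are printed because their genes are among the members that rose, 5′ to 3′ on the strand of the gene, with each match in capitals. Trib3, an ATF4-induced pseudokinase (4.93, 8.01 and 7.55 FPKM in MCS and 24.4, 27.9 and 18.7 in HGPP), and Slc7a11, the cystine importer (0, 0.00919 and 0.024 FPKM in MCS and 0.221, 0.917 and 0.485 in HGPP), were chosen after their values were seen, because they hold the motif. All 6 genes lie on the minus strand.
Asns, chr6:7693160-7693459: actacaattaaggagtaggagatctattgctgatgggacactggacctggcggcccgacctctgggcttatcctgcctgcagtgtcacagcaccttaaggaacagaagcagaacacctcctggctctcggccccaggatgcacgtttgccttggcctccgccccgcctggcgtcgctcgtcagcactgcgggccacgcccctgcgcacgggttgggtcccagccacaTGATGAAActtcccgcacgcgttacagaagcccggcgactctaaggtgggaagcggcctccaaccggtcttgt
Trib3, chr2:152344011-152344310: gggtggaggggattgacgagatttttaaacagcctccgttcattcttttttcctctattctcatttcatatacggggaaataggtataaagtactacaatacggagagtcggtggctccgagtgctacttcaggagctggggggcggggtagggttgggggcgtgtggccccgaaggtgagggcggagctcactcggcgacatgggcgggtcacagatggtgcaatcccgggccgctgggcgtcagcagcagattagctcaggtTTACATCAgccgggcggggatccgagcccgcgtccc
Atf3, chr1:191183284-191183583: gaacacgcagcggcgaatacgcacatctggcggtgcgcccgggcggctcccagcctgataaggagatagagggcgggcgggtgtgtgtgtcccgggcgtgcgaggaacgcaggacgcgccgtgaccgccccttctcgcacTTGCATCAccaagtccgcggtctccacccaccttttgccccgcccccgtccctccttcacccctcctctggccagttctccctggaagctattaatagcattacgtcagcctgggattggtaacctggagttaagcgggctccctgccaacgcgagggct
Slc7a11, chr3:50443564-50443863: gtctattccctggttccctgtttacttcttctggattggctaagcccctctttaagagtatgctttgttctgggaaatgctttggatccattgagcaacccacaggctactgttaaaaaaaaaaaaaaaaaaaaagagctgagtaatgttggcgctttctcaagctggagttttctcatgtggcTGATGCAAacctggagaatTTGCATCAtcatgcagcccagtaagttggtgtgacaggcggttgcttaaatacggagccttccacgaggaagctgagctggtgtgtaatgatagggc
Fgf21, chr7:45615441-45615740: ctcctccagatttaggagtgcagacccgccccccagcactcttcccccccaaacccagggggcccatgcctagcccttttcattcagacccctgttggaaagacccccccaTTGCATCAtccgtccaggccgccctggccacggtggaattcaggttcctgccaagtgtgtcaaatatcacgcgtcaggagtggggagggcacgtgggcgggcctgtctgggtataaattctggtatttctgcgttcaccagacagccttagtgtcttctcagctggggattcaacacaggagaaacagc
Nupr1, chr7:126625421-126625720: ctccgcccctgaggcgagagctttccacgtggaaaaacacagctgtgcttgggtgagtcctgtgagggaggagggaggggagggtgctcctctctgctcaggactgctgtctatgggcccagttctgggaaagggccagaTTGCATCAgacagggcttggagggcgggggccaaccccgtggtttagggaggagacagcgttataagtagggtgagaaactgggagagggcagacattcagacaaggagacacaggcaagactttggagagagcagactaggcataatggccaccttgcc
The match in Asns reads TGATGAAA from 23 to 16 bases before the start, and Atf3 and Nupr1 hold theirs at the same distance, 110 to 103 bases before it. Slc7a11 holds 2 matches, 66 to 59 and 47 to 40 bases before the start, and in Trib3 the match lies after the start. The match in Asns and the farther one in Slc7a11 are read on the strand of the gene and the others on the opposite strand.

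Listed genes of the unfolded protein response, a stress response of the endoplasmic reticulum, were called higher no more often than all genes. Of 17 members 2 were called higher as deposited (16.4% of all genes) and none under both scalings (5.10%), 2 fell, Herpud1 and Derl3 (2.43%), and the median was 0.01 (−0.34 after scaling). The chaperone Hspa5 (BiP) stood at 97.4, 208 and 211 FPKM in MCS and 249, 273 and 268 in HGPP and the transcription factor Xbp1 at 55.2, 82.8 and 83.3 FPKM in MCS and 73, 67.6 and 79.3 in HGPP. The ranges of Xbp1 overlapped, and those of Hspa5 did not, without a call (limma, adjusted p = 0.1). Derl3, a protein of endoplasmic reticulum degradation, fell from 5.63, 5.97 and 4.29 FPKM in MCS to 1.73, 1.34 and 1.25 in HGPP (-1.81 ± 0.22, limma adjusted p = 0.0017). Herpud1, of the same pathway, fell by 0.61 log2 units (limma, adjusted p = 0.028), a call that was lost without MCS replicate 2, MCS replicate 3, HGPP replicate 1 or HGPP replicate 2 (adjusted p up to 0.091).

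Genes of the p53 response and of the cell cycle were among the members that rose. Of 19 p53 targets 9 were called higher as deposited and 7 under both scalings, against 16.4% and 5.10% of all genes (median 0.90, 0.77 after scaling). Of 21 cell cycle genes 14 and 10 were called, with 1 that fell (median 1.38, 1.15 after scaling). Cdkn1a (chr17:29090976-29100727), the inhibitor p21 of cyclin-dependent kinases, stood at 0.476, 1.31 and 3.39 FPKM in MCS and 15, 15.5 and 12.1 in HGPP. The MCS livers spread widely and the HGPP livers did not, and the groups were separate (3.33 ± 0.52, limma adjusted p = 0.0049). Phlda3, an inhibitor of AKT signaling, rose by 2.20 ± 0.28 (limma, adjusted p = 0.0023), Btg2, an antiproliferative transcriptional cofactor, by 1.98 ± 0.29 (limma, adjusted p = 0.0039) and the nuclease Aen by 1.38 ± 0.26 (limma, adjusted p = 0.0096). Mdm2, the ubiquitin ligase of p53, was at 3.73, 5.06 and 6.98 FPKM in MCS and 9.12, 9.98 and 7.38 in HGPP, without overlap and without a call (limma, adjusted p = 0.051).

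Among cell cycle genes Cdk1, the mitotic kinase, stood at 0.139, 0.0778 and 0.149 FPKM in MCS and 1.37, 1.04 and 0.878 in HGPP (2.42 ± 0.29, limma adjusted p = 0.0017). Cdc20, an activator of the anaphase-promoting complex, was at 0.198, 0.0343 and 0.358 FPKM in MCS and 5.73, 1.61 and 2.8 in HGPP (3.54 ± 0.53, limma adjusted p = 0.004), and the proliferation marker Mki67 at 0.158, 0.204 and 0.153 FPKM in MCS and 1.25, 0.76 and 0.545 in HGPP (1.75 ± 0.33, limma adjusted p = 0.0095). HGPP replicate 1 was the highest liver for all 3. Ccnd1, cyclin D1 of the G1 phase, was at 3.94, 1.06 and 3.8 FPKM in MCS and 15.1, 8.63 and 18.4 in HGPP (2.36 ± 0.47, limma adjusted p = 0.012). Tk1, thymidine kinase of the salvage pathway, went the other way, from 7.84, 5.66 and 4.1 FPKM in MCS to 2.32, 2.13 and 1.66 in HGPP (-1.45 ± 0.26, limma adjusted p = 0.0079). Most mitotic genes stayed under 3 FPKM in HGPP. Which cells carried them was not measured. In bulk RNA a change in the number of cells of a type and a change in RNA per cell cannot be told apart. The immediate early list had 7 of 13 members called higher as deposited and 4 under both scalings, against 16.4% and 5.10% of all genes (median 1.14, 0.79 after scaling). The 7 became 3 without MCS replicate 1, 4 without MCS replicate 3, 2 without HGPP replicate 2 and 3 without HGPP replicate 3. Jun, a subunit of AP-1, stood at 5.56, 6.3 and 4.99 FPKM in MCS and 14.1, 26.2 and 16.8 in HGPP (1.70 ± 0.23, limma adjusted p = 0.0028) and Klf6, a zinc finger factor of injured liver, rose by 1.67 ± 0.29 (limma, adjusted p = 0.0074). Myc rose from 6.7, 1.2 and 1.57 FPKM in MCS to 12.1, 21.7 and 17.1 in HGPP, a call lost without HGPP replicate 2 (adjusted p = 0.056) by limma, and Fos (0.652, 1.01 and 0.227 FPKM in MCS and 1.15, 3.6 and 2.6 in HGPP) was called only as deposited (limma, adjusted p = 0.037) and not without MCS replicate 1, MCS replicate 3, HGPP replicate 2 or HGPP replicate 3 (adjusted p up to 0.14).

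Most cytoskeletal and membrane-binding genes rose. Of 20 tested members 17 were called higher as deposited and 13 under both scalings, against 16.4% and 5.10% of all genes. The median was 1.51 (1.16 after scaling), no member was lower, and 14 to 17 were called higher without 1 library in turn. Anxa2 (chr9:69453620-69491795), a calcium-dependent membrane-binding annexin, stood at 2.58, 3.83 and 3.03 FPKM in MCS and 32.1, 63.5 and 44.3 in HGPP (3.81 ± 0.25, limma adjusted p = 0.00018). Anxa5, which binds phosphatidylserine, was at 28.2, 30 and 31.7 FPKM in MCS and 104, 149 and 115 in HGPP (2.01 ± 0.16, limma adjusted p = 0.00038). S100a11, a calcium-binding partner of annexins, rose by 2.68 ± 0.20 (limma, adjusted p = 0.00029) and the beta-tubulin Tubb2a from 19.6, 27.6 and 32.3 FPKM in MCS to 121, 156 and 169 in HGPP (limma, adjusted p = 0.00043). Vim, the intermediate filament of mesenchymal cells and leukocytes, stood at 5.89, 5.14 and 5.71 FPKM in MCS and 14.5, 25.7 and 12.3 in HGPP (1.56 ± 0.25, limma adjusted p = 0.0055), and Actb, at 148, 189 and 158 FPKM in MCS and 287, 358 and 274 in HGPP, was called as deposited (limma, adjusted p = 0.0093) but not after scaling (limma, adjusted p = 0.085).

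The keratins of hepatocytes rose to a high level. Krt8 (chr15:101996698-102004482) stood at 92.6, 86.1 and 104 FPKM in MCS and 363, 699 and 603 in HGPP, and its filament partner Krt18 (chr15:102028180-102032027) at 129, 108 and 108 FPKM in MCS and 315, 604 and 487 in HGPP. All HGPP livers lay above all MCS livers, by 2.51 ± 0.23 for Krt8 (limma, adjusted p = 0.00056) and 1.98 ± 0.23 for Krt18 (limma, adjusted p = 0.0016). Krt23, a keratin induced in injured liver, was at 1.96, 3.48 and 3.03 FPKM in MCS and 9.86, 12.3 and 20.5 in HGPP (2.26 ± 0.30, limma adjusted p = 0.0025). These 3 were the members of the cholangiocyte and progenitor list of 11 that rose, against 5.10% of all genes. Krt19, a keratin of bile ducts that hepatocytes lack, stood at 0.542, 0.587 and 1.08 FPKM in MCS and 0.565, 4.6 and 0.996 in HGPP and overlapped between the groups (limma, adjusted p = 0.32), with HGPP replicate 2 far above the other HGPP livers. The summed level of the list ranged from 201 to 228 FPKM in MCS and from 694 to 1339 in HGPP, most of it Krt8 and Krt18.

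**Figure D3:**
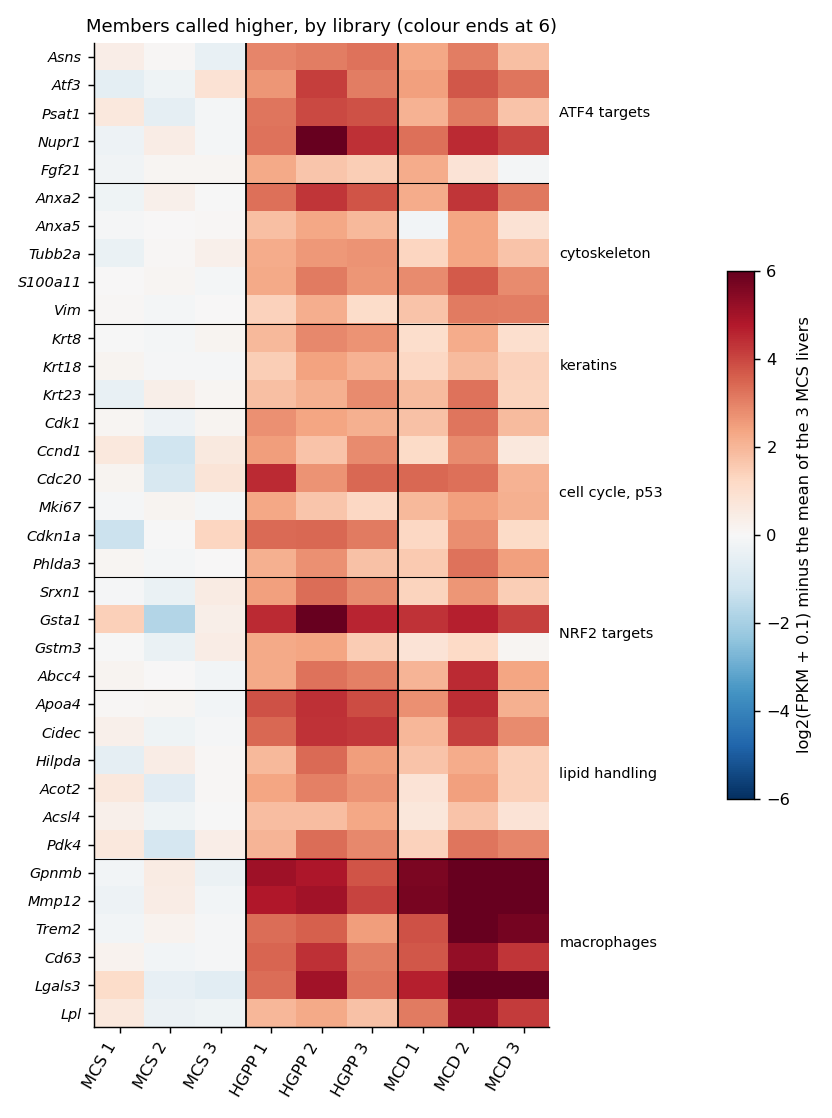
Log2(FPKM + 0.1) of 35 members that rose, minus the mean of the 3 MCS livers (colour, capped at 6), in each of 9 libraries (columns) with genes in rows by group. HGPP livers are above the MCS mean in every row, and MCD livers are shown for comparison, with darker colours for the macrophage genes in MCD replicates 2 and 3.

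Targets of NRF2, the transcription factor of the antioxidant response, rose in part. Of 18 members 9 were called higher as deposited and 6 under both scalings (16.4% and 5.10% of all genes), with a median of 0.77 (0.42 after scaling), and 7 to 9 without 1 library in turn. Srxn1 (chr2:152105516-152111376), sulfiredoxin, stood at 13.5, 10.9 and 20 FPKM in MCS and 79.3, 146 and 104 in HGPP (2.89 ± 0.27, limma adjusted p = 0.00055). Gstm3, a glutathione transferase, was at 78.3, 59.1 and 106 FPKM in MCS and 378, 406 and 224 in HGPP (2.04 ± 0.27, limma adjusted p = 0.0025), and Gsta1, of the alpha class, at 2.05, 0.134 and 0.909 FPKM in MCS and 17.5, 71.5 and 18.7 in HGPP (5.17 ± 0.77, limma adjusted p = 0.004). Abcc4, an efflux pump of the basolateral membrane, was low in MCS and rose by 2.85 ± 0.30 (limma, adjusted p = 0.0011). The catalytic subunit of glutathione synthesis, Gclc, was not called, at 43.5, 53 and 69.6 FPKM in MCS and 68.9, 62.1 and 70.7 in HGPP and overlapping ranges (limma, adjusted p = 0.25). Nqo1, a quinone reductase, stood at 4.46, 3.83 and 5.34 FPKM in MCS and 9.16, 8.13 and 8.29 in HGPP and was called as deposited (limma, adjusted p = 0.011) but not after scaling (limma, adjusted p = 0.073). Hmox1, heme oxygenase of macrophages and stressed hepatocytes, was at 13.7, 8.41 and 9.24 FPKM in MCS and 26.5, 35.3 and 32.3 in HGPP (1.60 ± 0.21, limma adjusted p = 0.0022). The antioxidant response element TGACNNNGC was present, on either strand, in the RefSeq promoters of 7 of 15 list members and of 2 of the 5 with a promoter that rose, against 14% of all genes with a RefSeq promoter. Since the list was drawn up as targets of NRF2, these counts are a description and no test.

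Many enzymes of drug metabolism fell. Of 29 enzymes none was called higher and 14 fell, against 2.43% of all genes that fell. The median log2 fold change was −0.66 (−1.01 after scaling), against 0.33 and 0.02 over all genes. The count of 14 was 9 without MCS replicate 1, 8 without MCS replicate 3, 9 without HGPP replicate 2 and 9 without HGPP replicate 3. Ces3b (chr8:105083753-105093929), a carboxylesterase, stood at 43.7, 35.1 and 66.4 FPKM in MCS and 8.73, 8.28 and 9.04 in HGPP. The HGPP livers lay within 0.767 FPKM of each other and lay under every MCS liver (-2.42 ± 0.22, limma adjusted p = 0.00052). Besides Cyp2c54, Cyp2c38 fell from 42.9, 44.3 and 49 FPKM in MCS to 25.9, 16.8 and 13.7 in HGPP (-1.31 ± 0.22, limma adjusted p = 0.006), and Ugt3a1, a glycosyltransferase, by 1.77 log2 units (limma, adjusted p = 0.011). Cyp1a2, the caffeine-metabolizing cytochrome of pericentral hepatocytes, overlapped between the groups (251, 237 and 175 FPKM in MCS and 212, 292 and 229 in HGPP, limma adjusted p = 0.61).

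Targets of the xenobiotic receptors CAR and PXR went both ways, with 2 of 14 that rose and 4 that fell, 2 of these when MCS replicate 3 was left out, against 5.10% and 2.43% of all genes (median 0.11, −0.25 after scaling). Cyp2b10 (chr7:25897620-25926624), the classical CAR target, stood at 0.0501, 0.515 and 0.285 FPKM in MCS and 2.41, 1.87 and 2.41 in HGPP (2.82 ± 0.46, limma adjusted p = 0.0056), and Cyp2c55 rose from 0.716, 0.962 and 1 FPKM in MCS to 4.2, 2.77 and 3.03 in HGPP (1.78 ± 0.24, limma adjusted p = 0.0028). Cyp2c37 fell from 261, 264 and 318 FPKM in MCS to 75.2, 65.3 and 116 in HGPP (-1.75 ± 0.22, limma adjusted p = 0.0019) and Cyp2c50 by 1.41 log2 units (limma, adjusted p = 0.0025). Cyp3a11, the main PXR target of mouse liver, overlapped (683, 321 and 514 FPKM in MCS and 753, 586 and 534 in HGPP, limma adjusted p = 0.37). The receptor CAR itself, Nr1i3, fell by 0.87 log2 units (limma, adjusted p = 0.021), a call lost without MCS replicate 2, MCS replicate 3, HGPP replicate 2 or HGPP replicate 3 (adjusted p up to 0.074).

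Many genes that growth hormone keeps high in male liver fell. Of 16 male-biased genes 8 fell (against 2.43% of all genes) and none rose under both scalings, with a median of −1.19 (−1.54 after scaling), and 7 to 10 were called lower without 1 library in turn. Besides Mup7, Mup11 and Hsd3b5, Elovl3 (chr19:46131897-46135694), an elongase of very long fatty acids, stood at 16.6, 25.8 and 32.3 FPKM in MCS and 8.34, 4.56 and 3.68 in HGPP. The groups were separate (-2.18 ± 0.32, limma adjusted p = 0.0039), and the MCD livers lay at 0.925, 0.879 and 3.67 FPKM. Cyp7b1, an oxysterol hydroxylase, fell from 23.3, 24.5 and 24.6 FPKM in MCS to 14, 12.9 and 11.1 in HGPP (-0.93 ± 0.14, limma adjusted p = 0.0045). Mup1 fell by 2.53 log2 units (limma, adjusted p = 0.0079). The list was not uniform, since Mup20, chosen here after its values were seen, was higher as deposited (743, 747 and 297 FPKM in MCS and 1131, 1309 and 1234 in HGPP, limma adjusted p = 0.041) and not called after scaling (limma, adjusted p = 0.23). Of 14 female-biased genes 2 rose, Cyp2a4 and Cyp3a44, against 5.10% of all genes. The others were not called, such as Cyp2b9 at 76.2, 166 and 264 FPKM in MCS and 127, 91.7 and 133 in HGPP (limma, adjusted p = 0.51). The letters TTCNNNGAA of the STAT5 element, through which growth hormone acts, were in none of the 9 promoters of the male-biased list, against 9.55% of all genes.

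In the growth hormone axis itself the receptor Ghr (chr15:3317760-3583492) fell from 28.8, 35.6 and 37.4 FPKM in MCS to 18.8, 15 and 14.9 in HGPP (-1.06 ± 0.16, limma adjusted p = 0.0044) and Igfals, the acid-labile subunit that holds IGF1 in plasma, from 40.3, 39.6 and 45.6 FPKM in MCS to 18.1, 13.7 and 21.9 in HGPP (-1.24 ± 0.18, limma adjusted p = 0.0038). Igf1 itself overlapped between the groups (46.9, 46.1 and 43.1 FPKM in MCS and 30.6, 51.9 and 35.6 in HGPP, limma adjusted p = 0.4). The IGF-binding protein Igfbp1, a fasting- and stress-induced inhibitor of IGF1, rose from 126, 50.3 and 76.3 FPKM in MCS to 282, 583 and 602 in HGPP (2.56 ± 0.37, limma adjusted p = 0.0036), and Igfbp3, the main carrier of IGF1, by 1.28 ± 0.25 (limma, adjusted p = 0.01). Socs2 and the other members were not called.

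**Figure D4:**
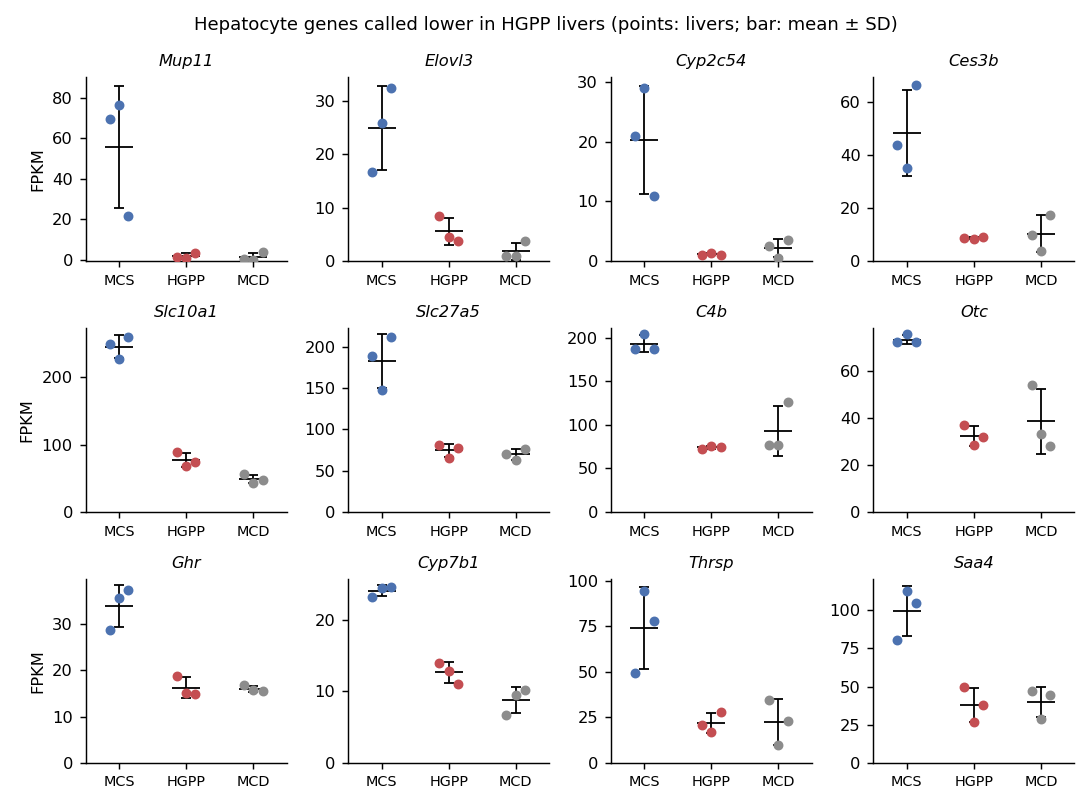
FPKM (vertical axis) of 12 genes that fell in HGPP against MCS, for the 3 livers of MCS, HGPP and MCD (points), with mean and SD (bars). In each panel all 3 HGPP livers lie under all 3 MCS livers, as for Ghr at 14.9 to 18.8 FPKM against 28.8 to 37.4.

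Single genes of lipid storage and lipoproteins rose strongly. Cidec (chr6:113424634-113435760), which fuses lipid droplets, stood at 6.95, 4.79 and 5.47 FPKM in MCS and 63.6, 115 and 108 in HGPP. The lowest HGPP liver lay 9.15-fold above the highest MCS liver (limma, adjusted p = 0.00013). Apoa4 (chr9:46240696-46243459), an apolipoprotein induced in fatty liver, was at 10.8, 11 and 9.09 FPKM in MCS and 147, 213 and 158 in HGPP and had the smallest adjusted p of the genes named here (4.04 ± 0.17, limma adjusted p = 2.2e-05). Hilpda, a hypoxia-induced inhibitor of lipolysis, rose from 1.63, 3.31 and 2.54 FPKM in MCS to 9.5, 26 and 14 in HGPP (2.61 ± 0.37, limma adjusted p = 0.0031). The droplet coat protein Plin2 stood at 254, 201 and 249.9 FPKM in MCS and 414, 770.1 and 745 in HGPP and was called as deposited (limma, adjusted p = 0.0074) but not after scaling (limma, adjusted p = 0.054). Fitm1, of droplet formation, fell by 0.96 log2 units (limma, adjusted p = 0.015), a call lost without MCS replicate 2, HGPP replicate 2 or HGPP replicate 3 (adjusted p up to 0.055). Of 15 droplet and lipolysis genes 2 rose and 1 fell, against 5.10% and 2.43% of all genes (median 0.35, 0.01 after scaling).

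Of 14 genes of fatty acid uptake and binding 5 rose and 3 fell (5.10% and 2.43% of all genes), and the median changed sign with scaling (0.27 and −0.08). Only 1 member was called lower without MCS replicate 1, MCS replicate 3 or HGPP replicate 2. Acsl4, an acyl-CoA synthetase that prefers arachidonic acid, stood at 7.67, 5.25 and 6.13 FPKM in MCS and 22.6, 23 and 31.3 in HGPP (2.00 ± 0.19, limma adjusted p = 0.00069), and lipoprotein lipase, Lpl, which adult hepatocytes hardly express, at 2.06, 0.983 and 1.07 FPKM in MCS and 5.46, 6.68 and 4.65 in HGPP (2.01 ± 0.29, limma adjusted p = 0.0036). Fabp7, a fatty acid-binding protein, rose from 2.45, 0.563 and 0.909 FPKM in MCS to 4.37, 9.61 and 6.93 in HGPP (limma, adjusted p = 0.0098), a call lost without HGPP replicate 2 (adjusted p = 0.051). The translocase Cd36 was at 27.2, 35.1 and 32.4 FPKM in MCS and 65.8, 53.3 and 78 in HGPP and was called as deposited only (limma, adjusted p = 0.0061, and 0.059 after scaling). Slc27a5, which joins bile acids and long fatty acids to CoA in hepatocytes, fell from 189, 148 and 211 FPKM in MCS to 80.9, 65.5 and 77.5 in HGPP (-1.28 ± 0.17, limma adjusted p = 0.0025). Fabp1, the abundant binding protein of hepatocytes, stood at 6756, 5049 and 4803 FPKM in MCS and 2622, 5192 and 3502 in HGPP and was not called (limma, adjusted p = 0.18).

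Among 24 genes of fatty acid oxidation and ketogenesis 3 rose, against 5.10% of all genes, and the median of 0.02 (−0.33 after scaling) lay below that of all genes. These were Pdk4, Acot2 and Fgf21. Pdk4, the kinase that turns off pyruvate dehydrogenase in fasting, stood at 12.8, 4.08 and 10.8 FPKM in MCS and 34.1, 84.4 and 62.6 in HGPP (2.75 ± 0.44, limma adjusted p = 0.0051), and the mitochondrial thioesterase Acot2 at 18.7, 7.34 and 12.6 FPKM in MCS and 62.6, 98.3 and 78.7 in HGPP (limma, adjusted p = 0.0015). Cpt1a, which controls entry of fatty acids into mitochondria, was not called (limma, adjusted p = 0.56), and neither was Ppara, a transcription factor of fatty acid oxidation (7.68, 12.3 and 15.4 FPKM in MCS and 10.8, 6.58 and 11.6 in HGPP, limma adjusted p = 0.52). The PPAR response element, a direct repeat searched on both strands, was found in none of 17 promoters of the list and in 0.0481% of all genes.

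Of 17 lipogenic genes 1 rose and 3 fell (5.10% and 2.43% of all genes), and the median changed sign with scaling (0.18 and −0.15). Thrsp, a lipogenic regulator that responds to thyroid hormone and carbohydrate, fell from 49.5, 94.4 and 78.1 FPKM in MCS to 20.9, 16.8 and 27.9 in HGPP (-1.74 ± 0.26, limma adjusted p = 0.004), and Elovl6, which elongates palmitate, rose from 5.52, 7.4 and 6.64 FPKM in MCS to 12.9, 16.8 and 15.3 in HGPP (1.19 ± 0.17, limma adjusted p = 0.0038). Fasn, fatty acid synthase, overlapped (12.1, 22.4 and 19.8 FPKM in MCS and 28.9, 16.8 and 18.8 in HGPP). Scd1, the stearoyl-CoA desaturase, stood at 266, 31.7 and 317 FPKM in MCS and 11.1, 23.8 and 36.9 in HGPP, where MCS replicate 2 lay near the HGPP livers. Scd1 was called as deposited (limma, adjusted p = 0.044) but not after scaling, nor without MCS replicate 1, MCS replicate 3, HGPP replicate 1, HGPP replicate 2 or HGPP replicate 3 (adjusted p up to 0.13). Srebf1 and Acss2 fell by 0.70 and 0.68 log2 units (limma, adjusted p = 0.045 and 0.044), calls that were lost without 5 of the 6 libraries in turn, all but MCS replicate 3 for Srebf1 and HGPP replicate 1 for Acss2 (adjusted p up to 0.14 and 0.13). In the cholesterol list none of 20 members was called under both scalings and 1 as deposited (median −0.04, −0.38 after scaling), and 2 had an unadjusted p under 0.05 as deposited.

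Several enzymes of bile acid synthesis and 3 transporters fell. Of 14 synthesis and conjugation enzymes none was called higher and 5 fell, against 2.43% of all genes (median −0.56, −0.91 after scaling). The 5 became 3 without MCS replicate 1 and 2 each without MCS replicates 2 or 3 and HGPP replicates 2 or 3. Of 15 bile acid and anion transporters 4 were called higher and 3 lower as deposited, against 16.4% and 2.48% of all genes. Under both scalings 1, the efflux pump Abcc4, rose and 3 fell, against 5.10% and 2.43% (median 0.04, −0.32 after scaling). Their 4 became 2 without MCS replicate 1, MCS replicate 2 or HGPP replicate 1 and 1 without MCS replicate 3 or HGPP replicate 2. Slc10a1 (chr12:80953183-80968705), NTCP, the sodium-dependent importer of bile acids from blood, stood at 250.2, 228 and 260.0 FPKM in MCS and 89, 68.9 and 74.5 in HGPP. The groups were far apart (-1.67 ± 0.15, limma adjusted p = 0.00052), and MCD livers lay lower still, at 56.2, 43.3 and 47.8 FPKM. The sodium-independent importer Slco1b2 fell from 151, 192 and 199 FPKM in MCS to 108, 67.7 and 87.1 in HGPP (-1.06 ± 0.20, limma adjusted p = 0.0094). Cyp7a1, the rate-limiting enzyme of bile acid synthesis, varied widely and overlapped (22.7, 8.59 and 12.5 FPKM in MCS and 41.3, 2.62 and 4.81 in HGPP, limma adjusted p = 0.56), and Cyp8b1, the sterol 12-hydroxylase, was at 137, 90.8 and 158 FPKM in MCS and 85.6, 20.2 and 61 in HGPP without a call (limma, adjusted p = 0.062). Akr1d1 and Akr1c6, reductases of the pathway, fell by 1.06 and 0.65 log2 units (limma, adjusted p = 0.029 and 0.026). Both calls rested on single libraries. That of Akr1d1 was lost without MCS replicate 2, MCS replicate 3, HGPP replicate 2 or HGPP replicate 3 (adjusted p up to 0.093), that of Akr1c6 without MCS replicate 1, MCS replicate 2, MCS replicate 3, HGPP replicate 2 or HGPP replicate 3 (adjusted p up to 0.089) and that of the transporter Slco2b1 (-0.71) without MCS replicate 2, MCS replicate 3, HGPP replicate 2 or HGPP replicate 3 (adjusted p up to 0.079). Abcb11, the canalicular export pump, was at 71.3, 92.1 and 143 FPKM in MCS and 122, 64.7 and 62 in HGPP with overlapping ranges (limma, adjusted p = 0.5).

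Secreted proteins of hepatocytes were lower in part. Of 19 complement genes 7 fell and 1 rose, against 2.43% and 5.10% of all genes (median −0.33, −0.68 after scaling). The count of 7 was 4 without any one MCS library and 3 without HGPP replicate 2 or 3. C4b (chr17:34728380-34743882) stood at 187, 204 and 187 FPKM in MCS and 72, 75.6 and 74.8 in HGPP, and its HGPP livers were nearly equal (-1.38 ± 0.13, limma adjusted p = 0.00052). C3 overlapped (1580.3, 1018 and 1449.6 FPKM in MCS and 1012, 1016 and 1137 in HGPP, limma adjusted p = 0.28). C5ar1, the receptor for C5a on myeloid cells, was the member that rose, from 0.185, 0.274 and 0.182 FPKM in MCS to 1.43, 1.54 and 1.59 in HGPP (2.38 ± 0.25, limma adjusted p = 0.0011). C9 and Mbl2 fell by 1.07 and 1.24 log2 units (limma, adjusted p = 0.029 and 0.015), of which C9 lost the call without MCS replicate 3, HGPP replicate 2 or HGPP replicate 3 (adjusted p up to 0.094) and Mbl2 without MCS replicate 3 (adjusted p = 0.051).

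Of 20 acute phase genes 5 fell (2.43% of all genes, and 3 genes without MCS replicate 3) and 1 rose, the iron-chelating Lcn2, at 15.8, 14.9 and 9.38 FPKM in MCS and 50.5, 41.3 and 51.8 in HGPP (1.86 ± 0.21, limma adjusted p = 0.0014). Saa4, a constitutive serum amyloid, fell from 80.7, 113 and 105 FPKM in MCS to 49.4, 26.9 and 37.6 in HGPP (-1.42 ± 0.23, limma adjusted p = 0.0051), and Itih4 from 698, 505 and 551 FPKM in MCS to 265, 268 and 352 in HGPP (-0.99 ± 0.19, limma adjusted p = 0.01). The inducible Saa1 stood at 51.8, 10.9 and 7.44 FPKM in MCS and 9.7, 11.2 and 12.9 in HGPP, where MCS replicate 1 lay above all other livers (limma, adjusted p = 0.54). The fibrinogen chain Fga fell by 1.17 log2 units (limma, adjusted p = 0.024), and lost the call without MCS replicate 1 or MCS replicate 3 (adjusted p up to 0.078). Of 19 coagulation genes 3 fell and none rose, against 2.43% and 5.10% of all genes. Coagulation factor F7 (-0.70) and plasma kallikrein, Klkb1 (-0.89), lost the call without MCS replicate 2, MCS replicate 3, HGPP replicate 2 or HGPP replicate 3 (limma, adjusted p up to 0.076 and 0.061). Plasminogen, Plg (-1.10), lost it without MCS replicate 2 or MCS replicate 3 (adjusted p up to 0.071). In the plasma protein list 2 of 15 fell, against 2.43% of all genes, Igfals and the heparin-binding Hrg (-0.88). The call of Hrg was lost without MCS replicate 2 or HGPP replicate 2 (adjusted p up to 0.051). Albumin was not called (limma, adjusted p = 0.36). Of 17 apolipoprotein and VLDL assembly genes Apoa4 rose and 3 fell, against 5.10% and 2.43% of all genes (median −0.22, −0.57 after scaling). The 3 became 1 without MCS replicate 2 or 3 or HGPP replicate 3. Apob and Mttp, the core of VLDL assembly, were not called (limma, adjusted p = 0.36 and 0.83). Hepatic lipase, Lipc, fell from 74.2, 50 and 66 FPKM in MCS to 28.6, 36.6 and 31.5 in HGPP (-0.96 ± 0.18, limma adjusted p = 0.0091).

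Genes of amino acid breakdown fell in part, with 8 of 22 urea cycle and catabolic genes that fell and none that rose under both scalings, against 2.43% and 5.10% of all genes (median −0.34, −0.69 after scaling). The count of 8 was 3 without MCS replicate 1, 2 or HGPP replicate 2, 2 without MCS replicate 3 and 4 without HGPP replicate 3. Otc (chrX:10252305-10321024), ornithine transcarbamylase of the urea cycle, stood at 72.3, 75.8 and 72.2 FPKM in MCS and 36.9, 28.5 and 31.8 in HGPP (-1.19 ± 0.14, limma adjusted p = 0.0017), and Uroc1, of histidine breakdown, fell from 87.9, 121 and 122 FPKM in MCS to 64.9, 51 and 59.3 in HGPP (-0.91 ± 0.17, limma adjusted p = 0.0099, and 0.066 in 1 fit over 9 libraries). Cps1, the first enzyme of the urea cycle, overlapped (441, 375 and 514 FPKM in MCS and 447, 269.6 and 481 in HGPP, limma adjusted p = 0.6). Hal and Hpd, of histidine and tyrosine breakdown, fell by 1.07 and 0.72 log2 units (limma, adjusted p = 0.04 and 0.03), and lost the call without MCS replicate 1, MCS replicate 2, MCS replicate 3, HGPP replicate 2 or HGPP replicate 3 (adjusted p up to 0.12) and without any of the 6 libraries (adjusted p up to 0.085) respectively.

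Methionine, choline and one-carbon metabolism, whose substrates the diet lacks, held no gene that rose under both scalings among 26 tested, and 3 that fell, against 5.10% and 2.43% of all genes (median −0.16, −0.51 after scaling). Mat1a, which makes S-adenosylmethionine in hepatocytes, stood at 1408, 1279 and 1175 FPKM in MCS and 1168, 1096 and 1564 in HGPP and overlapped (limma, adjusted p = 0.94). Gnmt, which uses up S-adenosylmethionine, was at 967, 698 and 830.4 FPKM in MCS and 481, 603 and 747 in HGPP (limma, adjusted p = 0.15). Sardh, Mthfd1 and Shmt1 of folate-linked metabolism fell by 0.70, 0.71 and 0.58 log2 units (limma, adjusted p = 0.021, 0.037 and 0.046). All 3 calls were lost without single libraries, that of Sardh without MCS replicate 3 or HGPP replicate 2 (adjusted p up to 0.07), that of Mthfd1 without MCS replicate 1, MCS replicate 2, MCS replicate 3, HGPP replicate 2 or HGPP replicate 3 (adjusted p up to 0.1) and that of Shmt1 without MCS replicate 2, MCS replicate 3, HGPP replicate 2 or HGPP replicate 3 (adjusted p up to 0.14). Of 20 genes of glucose metabolism 1 rose and 3 fell, against 5.10% and 2.43% of all genes. Fbp1, of gluconeogenesis, fell from 660.3, 563 and 691 FPKM in MCS to 334, 303 and 371 in HGPP (-0.92 ± 0.16, limma adjusted p = 0.0072), and Pkm, the pyruvate kinase of non-hepatocytes, rose by 1.30 ± 0.23 (limma, adjusted p = 0.0079), and both lost the call in 1 fit over 9 libraries (adjusted p = 0.057 and 0.071). In the clock list of 18, 2 fell, against 2.43% of all genes. Dbp, an output factor, fell from 24.9, 35.1 and 21.5 FPKM in MCS to 12.6, 7.16 and 12.9 in HGPP (-1.33 ± 0.26, limma adjusted p = 0.011). Arntl (Bmal1) overlapped (0.148, 0.485 and 0.915 FPKM in MCS and 1.27, 0.49 and 0.288 in HGPP). The sources used here do not give the hour at which livers were taken.

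Genes of lipid-associated macrophages rose. Of 12 such genes 10 rose, against 5.10% of all genes, and the count stayed at 10 with any 1 library left out. The median of the list was 2.25 (1.92 after scaling). The summed level of the 12 ranged from 35.2 to 38.7 FPKM in MCS and from 100.3 to 277 in HGPP. Gpnmb (chr6:49036546-49070929), a lysosomal glycoprotein, stood at 0.122, 0.246 and 0.0923 FPKM in MCS and 8.15, 7.09 and 3.26 in HGPP (4.57 ± 0.38, limma adjusted p = 0.00043), and Mmp12, the macrophage elastase, at 0.0731, 0.195 and 0.0923 FPKM in MCS and 5.96, 6.91 and 3.42 in HGPP (4.63 ± 0.33, limma adjusted p = 0.00025). Trem2 (chr17:48346401-48354147), the lipid receptor that defines these cells, was at 0.118, 0.181 and 0.135 FPKM in MCS and 2.39, 2.84 and 1.29 in HGPP (3.16 ± 0.33, limma adjusted p = 0.00097). All HGPP livers lay above all MCS livers for these 3. Cd63, a tetraspanin of endosomes, rose by 3.64 ± 0.30 (limma, adjusted p = 0.00043) and the galectin Lgals3 by 3.87 ± 0.55 (limma, adjusted p = 0.0032). These genes stood higher in MCD, with Trem2 at 3.33, 16.6 and 12.9 and Gpnmb at 12.1, 125 and 52 FPKM, and the summed level of the list there ranged from 200.5 to 884 FPKM.

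Calls among genes of monocyte-derived macrophages and Kupffer cells depended on scaling and on single livers. Of 12 monocyte-derived macrophage genes 9 were called higher as deposited and 3 under both scalings, against 16.4% and 5.10% of all genes (median 1.45, 1.12 after scaling). The 9 became 2 without MCS replicate 2, 4 without MCS replicate 3, 1 without HGPP replicate 2 and 4 without HGPP replicate 3. The summed level of the 12 members was 87.0, 31.1 and 30.5 FPKM in MCS and 135, 226 and 122 in HGPP, and 158, 862 and 577 in MCD. Cd68, a lysosomal marker of macrophages, stood at 8.96, 4.48 and 4.15 FPKM in MCS and 21, 32.5 and 18.8 in HGPP (2.07 ± 0.31, limma adjusted p = 0.004). Cd14, the co-receptor for lipopolysaccharide, was at 4.61, 1.18 and 2.66 FPKM in MCS and 7.44, 22.1 and 16.9 in HGPP (limma, adjusted p = 0.012), and lost the call without HGPP replicate 2 (adjusted p = 0.061). Cx3cr1, the fractalkine receptor, rose by 1.94 ± 0.44 (limma, adjusted p = 0.019) and lost the call without MCS replicate 2 or HGPP replicate 2 (adjusted p up to 0.059). Ccr2, the receptor of inflammatory monocytes, overlapped (0.571, 0.54 and 0.445 FPKM in MCS and 1.03, 2.03 and 0.528 in HGPP, limma adjusted p = 0.15). Of 11 Kupffer cell genes 4 were called as deposited and 1, Hmox1, under both scalings, against the same shares (median 1.23, 0.88 after scaling). The 4 became 8 without MCS replicate 1, 1 without MCS replicate 2, MCS replicate 3 or HGPP replicate 3, and 2 without HGPP replicate 1 or 2. The summed level of the 11 was 218, 107 and 119 FPKM in MCS and 241, 333 and 253 in HGPP. Clec4f, the defining marker of resident Kupffer cells, stood at 47.6, 17.3 and 17.6 FPKM in MCS and 47.6, 80.9 and 49.1 in HGPP, where MCS replicate 1 reached the level of HGPP (limma, adjusted p = 0.051). Vsig4, another, was at 16.9, 5.05 and 7.11 FPKM in MCS and 18, 25.8 and 19.8 in HGPP and was called as deposited only (limma, adjusted p = 0.043), not without MCS replicate 2, MCS replicate 3, HGPP replicate 1, HGPP replicate 2 or HGPP replicate 3 (adjusted p up to 0.15).

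Of 16 chemokines and chemokine receptors 4 rose (5.10% of all genes), none was lower, and 4 to 5 were called higher without 1 library in turn (median 0.88, 0.57 after scaling). Ccl2, the attractant of monocytes, stood at 1.16, 0.731 and 1.88 FPKM in MCS and 3.49, 7.68 and 8.29 in HGPP (2.27 ± 0.39, limma adjusted p = 0.0072), and Ccl6 at 5.54, 2.42 and 2.16 FPKM in MCS and 12.2, 24.6 and 16.3 in HGPP (2.43 ± 0.36, limma adjusted p = 0.004). The receptor Cxcr4 rose from 0.234, 0.248 and 0.111 FPKM in MCS to 1.12, 2.79 and 1.23 in HGPP (2.53 ± 0.38, limma adjusted p = 0.0043) and Ccl3 by 2.52 ± 0.47 (limma, adjusted p = 0.0093).

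Receptors of microbial patterns and inflammasome genes were higher in HGPP in 17 of 23 members without overlap, against 36.7% of all genes, and 8 were called as deposited but 2 under both scalings, Tlr7 and Cd14 (median 0.89, 0.59 after scaling). The 8 became 3 without MCS replicate 2 or 3, 4 without HGPP replicate 1 and 2 without HGPP replicate 2. Tlr2, Nlrp3, Pycard, Casp1, Il1b and Tnf, for which the study also used qPCR, were low in all livers, and none rose under both scalings. Tlr2, the receptor for bacterial lipopeptides, stood at 1.11, 0.425 and 0.82 FPKM in MCS and 2.06, 2.47 and 2.09 in HGPP, without overlap, and was called as deposited (limma, adjusted p = 0.016) but not after scaling (limma, adjusted p = 0.061) nor without HGPP replicate 2 (adjusted p = 0.069). Tnf was at 0.194, 0.0781 and 0.122 FPKM in MCS and 0.503, 0.458 and 0.467 in HGPP, and likewise passed only as deposited (limma, adjusted p = 0.017, and 0.052 after scaling), and not without MCS replicate 2 or MCS replicate 3 (adjusted p up to 0.067). The sensor Nlrp3 stood at 0.183, 0.0947 and 0.247 FPKM in MCS and 0.388, 0.639 and 0.283 in HGPP and its adaptor Pycard (ASC) at 0.125, 0.152 and 0.0703 FPKM in MCS and 0.236, 0.234 and 0.201 in HGPP, both without overlap and without a call (limma, adjusted p = 0.091 and 0.17). Casp1, the caspase that they activate, was at 1.32, 0.878 and 0.597 FPKM in MCS and 1.53, 2.24 and 1.5 in HGPP (limma, adjusted p = 0.073). Il1b, its cytokine substrate, overlapped between the groups (1.53, 0.705 and 0.911 FPKM in MCS and 0.667, 1.86 and 2.04 in HGPP, limma adjusted p = 0.5). In MCD Tnf, Casp1, Il1b and Pycard lay above the HGPP mean in every liver, with Il1b at 2.97, 9.39 and 9.28 and Pycard at 0.458, 0.772 and 1.28 FPKM. Tlr2 (2.19, 4.51 and 4.53 FPKM in MCD) and Nlrp3 (0.408, 1.3 and 1.32) did so in MCD replicates 2 and 3 only. Their MCD replicate 1 lay just under the HGPP means of 2.21 and 0.437 FPKM.

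The lists of other leukocytes were short, and counts of 0 or 1 in them do not set them apart from all genes, of which 16.4% were called higher as deposited and 5.10% rose. Of the B cell (6 tested), NK cell (8), dendritic cell (8) and antigen presentation (11) lists no member was called by limma, and none had an adjusted p under 0.05 after scaling. An unadjusted p under 0.05 was found for 4 of these 33 genes as deposited (Cd86, Cd22, Clec9a and Cd80), and limma-voom on the recovered reads called none. Without MCS replicate 1, the highest MCS liver for these genes, 5 antigen presentation genes were called higher. Cd79a of B cells stood at 0.581, 0.22 and 0.183 FPKM in MCS and 0.154, 0.515 and 0.262 in HGPP, Ncr1 of NK cells at 0.137, 0 and 0.174 FPKM in MCS and 0.34, 0.266 and 0.0414 in HGPP and the class II gene H2-Aa at 26.7, 7.82 and 5.58 FPKM in MCS and 14.1, 35.8 and 13.8 in HGPP, where MCS replicate 1 lay above HGPP replicates 1 and 3. Of 9 neutrophil genes S100a8 was called as deposited only (1.45, 1.38 and 1.35 FPKM in MCS and 2.27, 3.84 and 3.95 in HGPP, limma adjusted p = 0.015), and not without MCS replicate 2, HGPP replicate 2 or HGPP replicate 3 (adjusted p up to 0.066). An unadjusted p under 0.05 was found by limma for 5 of the 9 as deposited, against 4968 of all 13817 genes, and limma-voom called none. Without overlap, 5 of the 9 lay above MCS, against 36.7% of all genes, and their median was 0.74 (0.49 after scaling). Ly6g, which defines neutrophils, was listed at 0 in all 6 libraries and was not tested. The interferon-stimulated list had a median of 0.01 (−0.34 after scaling) and no call under both scalings, with Isg15 at 16.9, 38.1 and 51.3 FPKM in MCS and 25.8, 27.5 and 38.7 in HGPP.

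Some matrix and fibrogenic genes rose. Of 15 collagen and matrix genes 7 were called higher as deposited and 4 under both scalings, against 16.4% and 5.10% of all genes (median 1.06, 0.72 after scaling), and of 13 stellate activation genes 7 and 3 (median 1.06, 0.73 after scaling). The matrix count of 7 was 3 without MCS replicate 2, MCS replicate 3 or HGPP replicate 2 and 4 without HGPP replicate 1. The stellate activation count of 7 was 4 without MCS replicate 1 or 3 and 3 without MCS replicate 2 or HGPP replicate 2. Col4a1 (chr8:11198423-11312826), a chain of basement membrane collagen, stood at 3.35, 4.31 and 5 FPKM in MCS and 16, 15.2 and 14 in HGPP. The HGPP livers lay close together and apart from MCS (1.83 ± 0.18, limma adjusted p = 0.00076). Lum, the collagen-binding lumican, rose by 1.41 ± 0.29 (limma, adjusted p = 0.013), a call lost in 1 fit over 9 libraries (adjusted p = 0.078). The fibrillar collagens were less clear, with Col1a1 at 1.05, 1.12 and 0.957 FPKM in MCS and 2.95, 5.29 and 1.73 in HGPP, which was called as deposited (limma, adjusted p = 0.025) but not after scaling nor without MCS replicate 2, MCS replicate 3, HGPP replicate 1 or HGPP replicate 2 (adjusted p up to 0.074), and Col3a1 at 1.47, 1.91 and 1.82 FPKM in MCS and 3.42, 6.56 and 2.25 in HGPP (limma, adjusted p = 0.061). Ccn2, connective tissue growth factor, rose from 1.87, 1.25 and 2.76 FPKM in MCS to 8.19, 15.5 and 7.51 in HGPP (2.34 ± 0.34, limma adjusted p = 0.0036). Its MCD livers lay lower, at 3.86, 4.83 and 2.08 FPKM. Mmp13, a collagenase, rose by 2.21 ± 0.49 (limma, adjusted p = 0.018) and lost the call without MCS replicate 2 or HGPP replicate 2 (adjusted p up to 0.063). Acta2, the smooth muscle actin of activated stellate cells, overlapped (5.2, 10.6 and 3.65 FPKM in MCS and 3.92, 8.39 and 4.64 in HGPP, limma adjusted p = 0.84), as did Tgfb1 (2.32, 1.24 and 1.05 FPKM in MCS and 1.71, 4.01 and 2.82 in HGPP). The stellate identity list was higher beside these genes, with summed levels of 124 to 141 FPKM in MCS and 184 to 277 in HGPP. Of its 10 members 6 were called higher as deposited and 1, the transcription factor Hand2, under both scalings, against 16.4% and 5.10% of all genes. Hand2 stood at 2.57, 3.05 and 3.58 FPKM in MCS and 5.89, 9.49 and 6.51 in HGPP (limma, adjusted p = 0.0094). The 6 became 2 without MCS replicate 1, MCS replicate 2, HGPP replicate 2 or HGPP replicate 3 and 3 without MCS replicate 3. The part of cell number in the matrix genes was not tested. Of 10 sinusoidal endothelial genes 1, Lyve1, rose, against 5.10% of all genes (2.52, 2.39 and 2.01 FPKM in MCS and 4.16, 8.61 and 7.53 in HGPP, limma adjusted p = 0.0095). That call was lost after quantile normalization and in 1 fit over 9 libraries (adjusted p up to 0.12). Stab2 was not called (5.99, 8.43 and 7.36 FPKM in MCS and 7.05, 6.77 and 5.97 in HGPP, limma adjusted p = 0.63).

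Mitochondrial, ribosomal and reference genes were compared with all genes, of which 16.4% were called higher as deposited and 5.10% rose. None of 13 genes of mitochondrial DNA and none of 22 nuclear subunits of the respiratory chain was called (medians 0.23 and 0.07, −0.12 and −0.28 after scaling), 1 of them, mt-Nd6, had an unadjusted p under 0.05, and limma-voom on the recovered reads called none. Of 24 ribosomal protein genes 4 and of 11 reference genes 3 were called higher as deposited, at medians of 0.55 and 0.38, and none after scaling. The ribosomal count was 8 without MCS replicate 1 and 0 without MCS replicate 2 or 3 or HGPP replicate 2 or 3. In the pericentral list of 16 Rgn, regucalcin, was the member that fell, against 2.43% of all genes (from 419, 455 and 414 FPKM in MCS to 228, 250.1 and 228 in HGPP, limma adjusted p = 0.0051). Of 12 T cell genes 1 and of 15 lysosomal genes 5 were called higher as deposited and none under both scalings. The lysosomal count was 2 without MCS replicate 2, MCS replicate 3 or HGPP replicate 2 and 1 without HGPP replicate 3. Gapdh stood at 44.6, 44.9 and 39.3 FPKM in MCS and 46.5, 43.9 and 55.6 in HGPP (limma, adjusted p = 0.41).

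MCD mice ate the same diet without HGPP, so that HGPP against MCD compares the polysaccharides with vehicle on that diet. Both distances share the MCS livers, and the values of the 3 groups are therefore given side by side. Of the 705 genes that rose in HGPP the mean in MCD was higher still in 308, and of the 336 that fell it was lower still in 145. By log2 means, 7870 of all 13817 genes lay lower in HGPP than in MCD. The 705 and 336 were chosen by their HGPP values, with which MCD is compared here. Their counts therefore lean toward MCD lying nearer to MCS, and they are a description and no test. Among all genes 3 were called between HGPP and MCD by limma (0.0217%), all lower in HGPP, and 1891 had an unadjusted p under 0.05. The 3 were Hsd3b2, Tnf and Acod1. The number was 443 without MCD replicate 1, 2 without MCD replicate 2 and 0 without MCD replicate 3 or any one HGPP library. Hsd3b2 (chr3:98709255-98724543), a steroid-converting 3-beta-hydroxysteroid dehydrogenase, was the only one that also fell against MCS, at 8.48, 8.61 and 5.21 FPKM in MCS, 2.57, 2.22 and 2.38 in HGPP and 10.6, 8.72 and 11.8 in MCD. Its HGPP livers lay under all others, with log2 differences of -2.07 ± 0.22 against MCD (limma, adjusted p = 0.014) and -1.56 ± 0.22 against MCS (limma, adjusted p = 0.0036). Tnf stood at 2.97, 3.29 and 4.51 FPKM in MCD, at a log2 difference of -2.66 ± 0.27 for HGPP minus MCD (limma, adjusted p = 0.014). Acod1, the itaconate-forming enzyme of activated macrophages, was at 0.706, 0.0732 and 0.408 FPKM in MCS, 0.143, 0.208 and 0.316 in HGPP and 2.65, 3.93 and 6.31 in MCD. Its HGPP livers overlapped with MCS and lay under MCD, at a log2 difference of -3.72 ± 0.37 (limma, adjusted p = 0.014).

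HGPP livers lay above both other groups without overlap in 478 genes (3.46%) and below both in 101 (0.731%), of which 94 also rose against MCS and 46 also fell. The first of these by their unadjusted p against MCD were Gm37419, Hsd3b2, Cend1, Slc10a2, Ube2g2 and Cyp2b10, of which only Hsd3b2 was called against MCD. Cend1, a neuronal protein of cell cycle exit, stood at 0.268, 0.216 and 0.151 FPKM in MCS, 1.39, 1.54 and 1.58 in HGPP and 0.441, 0.439 and 0.172 in MCD (2.38 ± 0.26 against MCS, limma adjusted p = 0.0012, and 1.90 ± 0.34 against MCD, limma adjusted p = 0.13). Slc10a2, the ileal type of sodium-dependent bile acid importer, was at 1.35, 2.5 and 2 FPKM in MCS, 4.65, 5.21 and 4.74 in HGPP and 2.62, 1.56 and 1.6 in MCD (1.32 ± 0.24 against MCS, limma adjusted p = 0.0081). Its HGPP livers were the 3 highest of the 9, and the difference from MCD was 1.33 ± 0.26 (limma, adjusted p = 0.13). Ube2g2, a ubiquitin-conjugating enzyme of the endoplasmic reticulum, stood at 9.47, 14.6 and 16.8 FPKM in MCS, 25.8, 30.4 and 27.9 in HGPP and 12.2, 17 and 13.9 in MCD (1.07 ± 0.21 against MCS, limma adjusted p = 0.011) and lost the call against MCS without HGPP replicate 2 (adjusted p = 0.051). Cyp2b10 lay at 0, 0.595 and 0.361 FPKM in MCD, and HGPP minus MCD was 2.87 ± 0.61 (limma, adjusted p = 0.16). Gm37419, at 0 in HGPP, was listed at 0.763, 2.63 and 6.69 FPKM in MCD.

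Other groups differed in where HGPP lay between MCS and MCD, without a call against MCD. Of the 12 lipid-associated macrophage genes all lay lower in HGPP than the MCD mean (median HGPP minus MCD −2.04), of the 9 neutrophil genes all (−1.92) and of the 6 B cell genes all (−1.74), against 7870 of all 13817 genes (−0.07). So did all tested T cell (12), NK cell (8), dendritic cell (8) and antigen presentation (11) genes (medians −0.93, −1.05, −1.02 and −1.17). Of 13 genes of mitochondrial DNA 12 lay lower (−0.85). The macrophage sums in MCD were 200.5, 884 and 596 FPKM, lowest in replicate 1. Of the 24 ATF4 targets 6 lay lower (median 0.37), of 20 cytoskeletal genes 8 (0.16) and of 20 cholesterol genes none (0.56). These counts describe the groups and were not tested.

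**Figure D5:**
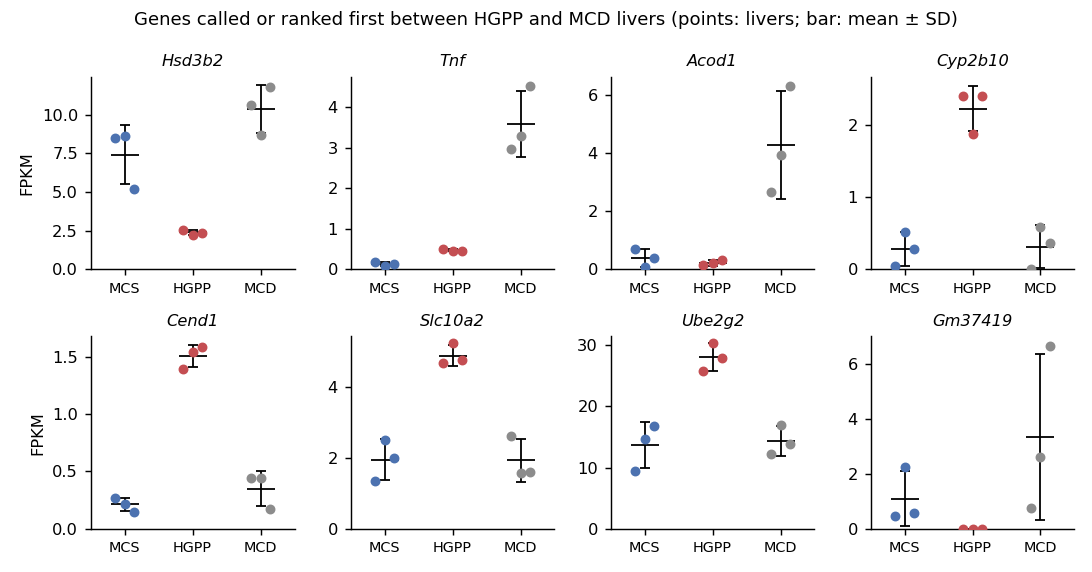
FPKM (vertical axis) of 8 genes in the 3 livers of MCS, HGPP and MCD (points), with mean and SD (bars). Hsd3b2, Tnf and Acod1 are the 3 genes called between HGPP and MCD, and the 3 HGPP values lie beyond both other groups for Hsd3b2, Cyp2b10, Cend1, Slc10a2, Ube2g2 and Gm37419.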

How the data were processed

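RNA from 9 mouse livers, 3 each of MCS, MCD and HGPP, was sequenced by the authors, who deposited 1 table of FPKM values for all 9 libraries. STAR 2.7.7a (alignment), fastp 0.20.1 (trimming) and featureCounts 2.0.0 (counting) are listed in the submitters' notes, and the methods of the study list other trimming and counting tools. The sources used here do not say which of these gave the FPKM values, or which genome build the authors aligned to. Gene lengths of GENCODE vM21 (GRCm38) brought 98.1% of values up to 1000 reads within 0.02 of a whole read, so symbols (21894 of 21936 genes) and gene coordinates were taken from that annotation. Whether reads were counted by strand is not given, so overlapping genes cannot be separated.

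Genes with at least 0.1 FPKM in 3 of the 9 libraries were tested on log2(FPKM + 0.1) with limma 3.58.1 (R 4.3.3, moderated test with trend, Benjamini-Hochberg adjustment over all tested genes, two-sided) on the 6 libraries compared. Python 3.11.15 with numpy 2.4.6, matplotlib 3.10.9 and pandas 2.3.3 served for tables and plots. FPKM is relative to the other genes of a library, and abundant genes that fall raise the rest, for which reason each call was also made after median-of-ratios scaling. Alternatives were pseudocounts of 1 and 0.01, no filter, a filter at 1 FPKM, quantile normalization, TPM, 1 fit over 9 libraries, the replicate number as a block, limma-voom on the recovered whole reads (2636 genes called in HGPP against MCS) and leaving out each library. On simulated data for HGPP against MCS (13817 genes) 75 of 100 genes changed 4-fold and 24 of 100 changed 2-fold were called, with 4 unchanged genes. The simulation changed no other genes, used independent normal noise and had no shift of the median. In the data 18.8% of genes were called and the median was 0.33, so these rates do not carry over to the comparison itself.

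Members and gene lists were chosen with earlier results of these data known. Named genes are the 10 largest rises and falls among genes called under both scalings, without overlap and with a mean of at least 1 FPKM, the first 2 members of each of 58 lists and up to 4 more that were called, the 6 genes that the study measured by qPCR, and up to 6 called genes whose HGPP values lie beyond both other groups. A gene that this rule names is not reported here. Errors given are those between mice, and no separate counting error was computed. Promoter sequences are from RefSeq (GRCm38.p6).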

Additional observations from a re-analysis of the deposited data

How the results depend on the processing

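The count of 2602 genes called in HGPP against MCS was 1376 after median-of-ratios scaling, 1207 after quantile normalization, 1420 in 1 fit over 9 libraries and 1585 with the replicate number as a block, and 1025 to 2025 without 1 library. The 1713 genes past the study's thresholds were 578 with a pseudocount of 1 and 1041 after quantile normalization, and 1261 to 2021 without 1 library. For HGPP against MCD the 3 genes became 0 without a filter and 0 after quantile normalization, 5 in TPM, 16 in 1 fit over 9 libraries, 14 with the block and 1 with limma-voom, and 0 to 443 without 1 library, the highest without MCD replicate 1 and 0 without MCD replicate 3 or any HGPP library. The causes were not tested. Of 226 named genes 149 were called as deposited, 105 of them remained called whichever library was left out, and none changed direction past the threshold. The labels give replicate numbers and no pairing. The deviations of same-numbered livers correlated at −0.31, −0.02 and 0.02, and no HGPP liver correlated best with the MCS liver of its own number. With 3 livers per group these correlations cannot settle whether the numbers pair the samples. After scaling 15 named genes lost their call, after quantile normalization 18, in 1 fit over 9 libraries 32, with the block 16 and without a filter 14. Depth limits genes near 0.1 FPKM, where 1 or 2 reads decide a value.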
